A study of Pyrus pyrifolia with 6 samples.

Results

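Gene 103963865, described as cytochrome P450 86A22 and written CYP86A22 here, is a fatty acid omega-hydroxylase gene of sand pear (*Pyrus pyrifolia*), and its transcript was examined in the skin of russet and green fruits. It is 1 gene of the 42966 in the deposited table. It was selected on its FPKM values and its fold change in the comparison of russet with green skin, so these values are given as a description, without a test. The russet skin came from ‘Niitaka’ and the green skin from its bud mutant ‘Suisho’, i.e., a line propagated from a mutated shoot of the russet cultivar. Skin was collected from 80-d fruits of healthy field-grown plants, each sample pooled 10 fruits, and each line gave 3 samples. Libraries A1 to A3 hold russet skin and libraries B1 to B3 green skin. Each line stands for 1 genotype, and nothing in the sources states that the 3 samples of a line came from separate trees, so the p-values below measure only the spread between these samples.

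Enzymes of the CYP86A subfamily add a hydroxyl group to the last carbon of a fatty acid chain. The omega-hydroxy acids formed in this way are building blocks of cutin, the polyester of the cuticle on an epidermis, and of suberin, the polyester of corky periderm. In Arabidopsis, CYP86A4 contributes to cutin and CYP86A1 to root suberin, and in petunia the enzyme named CYP86A22 acts in the stigma. Omega-hydroxypalmitate is also the acceptor on which omega-hydroxypalmitate O-feruloyl transferases (HHT) place a ferulate group during suberin formation.

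CYP86A22 was abundant in green skin and nearly silent in russet skin. Its level was 2.11, 1.01 and 0.979 FPKM (fragments relative to gene length and to the mapped fragments of the library) in russet libraries A1, A2 and A3, against 96.9, 114 and 85.4 FPKM in green libraries B1, B2 and B3. The groups did not overlap, and the lowest green library was 40.6 times the highest russet library. The mean was 1.36 ± 0.642 FPKM in russet and 98.8 ± 14.4 FPKM in green skin (SD, n = 3 each), so that russet skin held 1.38% of the green level. The log2 fold change, russet over green, was −6.15 (SE 0.29) on the scale of log2(FPKM + 0.1).

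The russet values rested on few reads, but these were well above zero. CYP86A22 had 169, 102 and 97 reads in A1, A2 and A3, and 9553, 9548 and 6341 reads in B1, B2 and B3. The 95% exact Poisson intervals ran from 1.80 to 2.45 FPKM in A1, from 0.823 to 1.22 FPKM in A2 and from 0.794 to 1.19 FPKM in A3, and they cover counting error only. The interval of A1 lay above those of A2 and A3, which overlapped each other. A1 was 2.12 times the mean of A2 and A3, and the ratio of the green to the russet mean was 72.4 with A1 and 99.3 without it. Over 1764 other genes called lower in russet skin with a russet mean of at least 0.1 FPKM, the median log2 difference between A1 and the mean of A2 and A3 was 0.0038, whereas it was 1.01 for CYP86A22. Genes of related pathways, listed below, also leaned to A1. The median ratio of A1 to the mean of A2 and A3 was 1.33 over 16 other cutin, suberin and wax genes with russet reads. It was 1.45 over 13 fatty acid elongation genes, and 0.975 over all genes called lower with russet reads. Relative to the mean, the spread of CYP86A22 was larger in russet skin (coefficient of variation 47.0%) than in green skin (14.6%).

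The rank of the gene differed as much as its level. By mean FPKM it was at place 22305 of the 33813 genes with a value above 0 in russet skin and at place 1148 of 33748 in green skin. By library, its place was 20280, 23199 and 23506 in A1, A2 and A3, and 1160, 997 and 1317 in B1, B2 and B3. The median gene above 0 was at 4.82 to 5.13 FPKM in the russet libraries, so CYP86A22 was under the median in all 3 of them. Genes 103947820 and 103949853, directly beside it in the green order and so near its level by choice, had 98.8 ± 6.62 and 98.6 ± 3.42 FPKM in green skin. In russet skin these neighbours in the order were at 103 ± 13.9 and 92.8 ± 4.16 FPKM.

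Of the 30161 genes tested, 15.3% were called by limma at a Benjamini-Hochberg adjusted p under 0.05, 8.05% as higher in russet skin and 7.29% as lower. CYP86A22 was at place 49 when all genes tested were ordered from the lowest log2 fold change, and at place 88 by its size in either direction. Genes directly around it in this order were 103968008 (−6.18) above and 108867914 (−6.15) below, and 103932052, an ECERIFERUM 1-like gene for alkane formation, followed at −6.14. Of the 49 genes down to this place, 42 had a green mean of at least 10 FPKM. This count is partly set by the scale, since with the added 0.1 so low a fold change needs several FPKM in green skin. Gene 108867914 reached −6.15 with 0 FPKM in russet and 7.28 FPKM in green skin. Of the 1148 genes with a green mean at or above that of CYP86A22, itself included, only 3 others had a log2 fold change as low. These were 103937955 (0.103 ± 0.178 FPKM in russet and 204 ± 76.8 FPKM in green skin), 103945826 (0.471 ± 0.226 and 179 ± 29.5 FPKM) and 103951985 (1.93 ± 1.20 and 132 ± 29.4 FPKM), none of which the tables used here name. By the difference of the means, 97.4 FPKM in favor of green skin, CYP86A22 was at place 99.

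**Figure D1:**
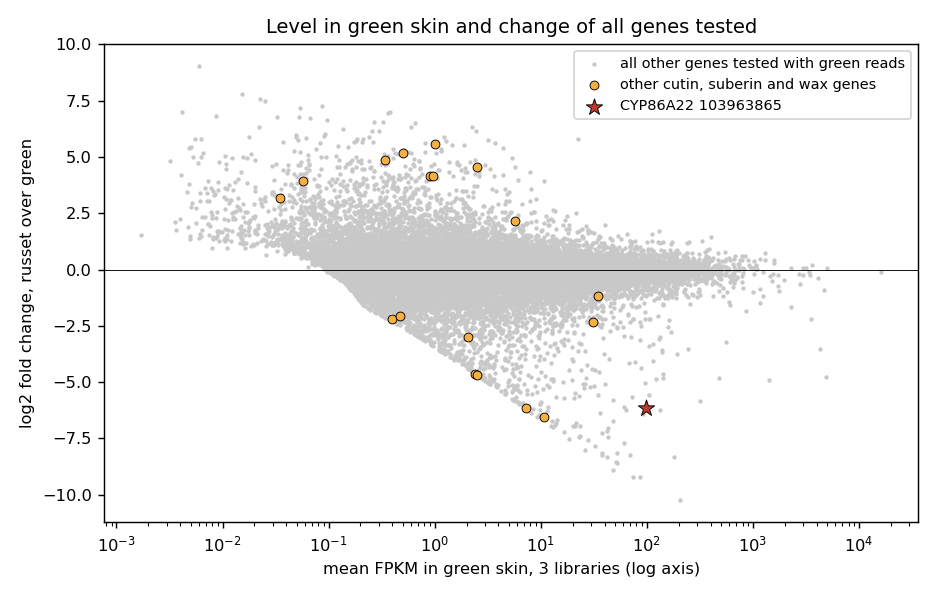
Mean FPKM in green skin (log axis) against the log2 fold change, russet over green, for all genes tested that had green reads, with the other cutin, suberin and wax genes as circles and CYP86A22 as a star. CYP86A22 lies at 98.8 FPKM and −6.15, below nearly all genes of its level, and the slanted lower edge is formed by genes with almost no russet reads, whose fold change is limited by the added 0.1.

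CYP86A22 was compared with the genes of the cutin, suberin and wax pathway, a list of 21 genes that the study drew from these same libraries, so its counts are not independent evidence of a direction. The other 20 genes were all tested, and 11 were called higher in russet skin, 8 lower, and 1 was not called, beside 15.3% called over all genes tested. Their median log2 fold change was 2.41, against 0.0032 over all genes tested. CYP86A22 was the second lowest of the 21 by change, after the ECERIFERUM 1-like gene 103929753 (−6.56).

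**Figure D2:**
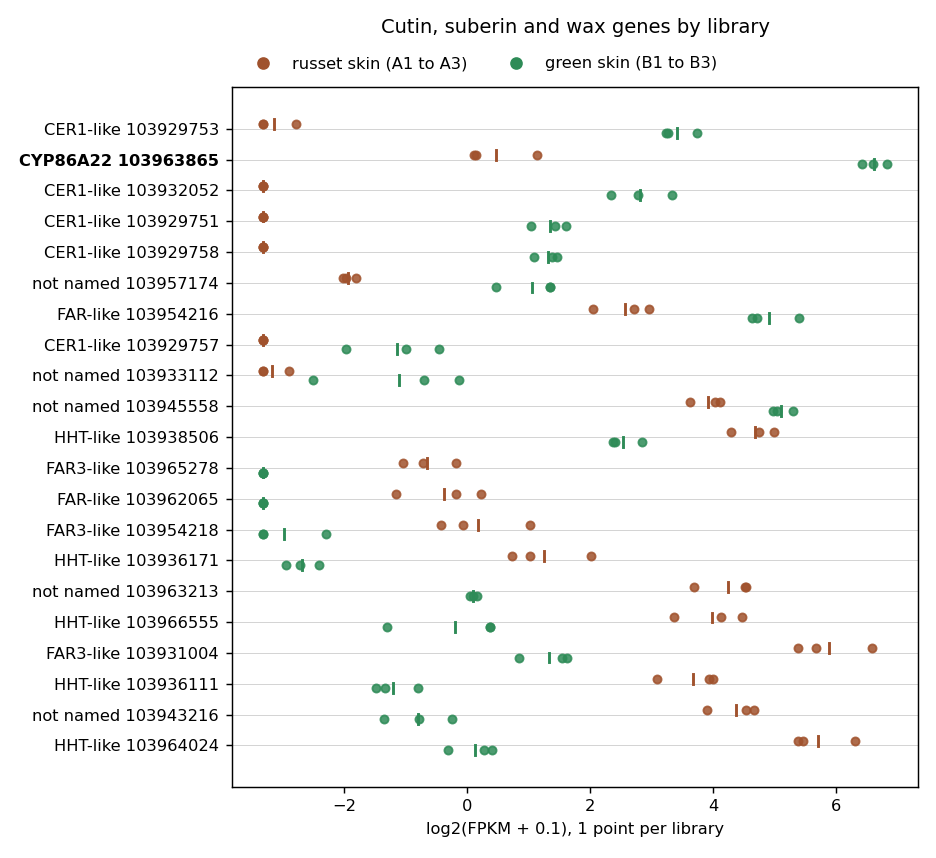
Level of the 21 cutin, suberin and wax genes as log2(FPKM + 0.1), 1 point per library with the group mean as a bar, russet skin above green skin in each row, ordered by log2 fold change. CYP86A22 has the highest green points of all rows, and the points of russet and green skin do not overlap in any row. The list was drawn from these same libraries, so this separation is no independent result. The share of all genes without overlap is not given here.

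In green skin, CYP86A22 made up about as much of the summed transcript of this list as all other 20 genes together. Its share of the summed FPKM of the list was 0.656%, 0.562% and 0.435% in A1, A2 and A3, against 50.2%, 47.4% and 49.4% in B1, B2 and B3. It was the most abundant of the 21 genes in every green library and at place 11, 11 and 12 in A1, A2 and A3. The sum over the list itself was of similar size in both skins, 321, 179 and 225 FPKM in A1, A2 and A3 and 193, 240 and 173 FPKM in B1, B2 and B3, and the ranges overlapped. The difference between the skins was thus in which of the listed genes made up the sum. Since the list was drawn from these same libraries, the shares and this make-up describe the listed genes and not the whole pathway. Next in green skin were 103945558 (15.3 ± 2.60 FPKM in russet and 34.5 ± 4.35 FPKM in green skin, log2 fold change −1.18, adjusted p = 0.00323), which the tables do not name, and 103954216, a gene for an alcohol-forming reductase of fatty acyl-CoA (6.05 ± 1.86 and 31.0 ± 9.61 FPKM, −2.34, adjusted p = 0.00202).

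**Figure D3:**
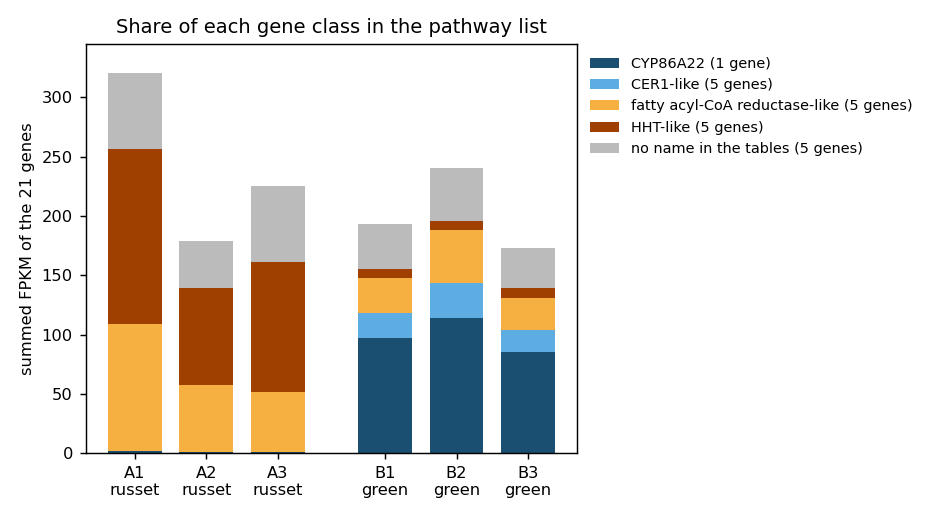
Summed FPKM of the 21 pathway genes per library, stacked by gene class, with the russet libraries on the left and the green libraries on the right. CYP86A22 fills 47.4% to 50.2% of the green bars and at most 0.656% of the russet bars, where HHT-like genes fill 45.5% to 48.7%.

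The 5 HHT-like genes, whose enzymes use omega-hydroxypalmitate, were all called higher in russet skin, opposite to CYP86A22. Over all genes tested, 8.05% were called higher. The HHT-like genes belong to the list drawn from these same libraries, so their count is not independent evidence. Most genes had no description and 5 list members have no name, so other hydroxylase genes could not be looked for among them. HHT-like 103964024 was at 78.9, 41.6 and 43.8 FPKM in A1, A2 and A3, against 1.22, 1.11 and 0.704 FPKM in B1, B2 and B3 (log2 fold change 5.59, adjusted p = 5.85e-05). The others had log2 fold changes of 4.88 (103936111), 4.17 (103966555), 3.94 (103936171) and 2.14 (103938506). Summed over the 5 genes, HHT-like transcript was 148, 81.6 and 110 FPKM in A1, A2 and A3, against 7.89, 8.01 and 8.37 FPKM in B1, B2 and B3. A1 was the highest russet library for this sum, as it was for CYP86A22. Of the 16 other list genes with russet reads, 9 were highest in A1, and these included 8 of the 11 called higher in russet skin. Over all genes with russet reads, A1 was the highest russet library for 43.0% of those called higher and 35.0% of those called lower.

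Genes for fatty alcohols, made by fatty acyl-CoA reductases, went both ways. Of the 5, 4 were called higher in russet skin and 103954216 lower, beside 8.05% called higher and 7.29% lower over all genes tested. They belong to the same list, so these counts are not independent evidence either. Reductase 103931004 was at 95.6, 51.1 and 41.7 FPKM in A1, A2 and A3, against 2.97, 2.82 and 1.69 FPKM in B1, B2 and B3 (4.55, adjusted p = 0.000213). Reductases 103962065 and 103965278 had no read in green skin, and with a floor of 3 reads over the 3 green libraries they were at least 45.8-fold and at least 36.9-fold higher in russet skin. Reductase 103954218 had 1.15 ± 0.692 FPKM in russet and 0.0348 ± 0.0602 FPKM in green skin (3.16, adjusted p = 0.00597).

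The 5 ECERIFERUM 1-like genes, of the alkane branch of cuticular wax, were all called lower in russet skin, beside 7.29% over all genes tested. They too belong to the list drawn from these same libraries, so the count is not independent evidence. Their green levels, at most 10.7 FPKM on average, were under that of CYP86A22. Gene 103929753 had 0, 0 and 0.0447 FPKM in A1, A2 and A3, against 9.58, 13.3 and 9.31 FPKM in B1, B2 and B3 (adjusted p = 2.72e-05). The other 4 had no read in any russet library, and were at least 228-fold (103932052), 199-fold (103929751), 153-fold (103929758) and 30.2-fold (103929757) lower in russet skin by the same floor. The last of these rested on 0.395 ± 0.236 FPKM in green skin, and its call (adjusted p = 0.0186) was lost with a pseudocount (the constant added to FPKM) of 1 and when A1, A2, A3, B1 or B2 was left out (adjusted p from 0.0523 to 0.0685). CYP86A22 had 368 russet reads, against 4 for 103929753 and none for the others. As green levels of this group were lower, a similar fold change leaves fewer russet reads, so this alone shows no difference in fold change. Gene 103932052, without a russet read, had a log2 fold change of −6.14, against −6.15 for CYP86A22. Of 5 list members without a name, 4 were called as well, 103943216 (5.17) and 103963213 (4.15) higher and 103957174 (−2.99) and 103945558 lower, and 103933112 was not called (0.0115 ± 0.0199 and 0.468 ± 0.369 FPKM in russet and green skin, adjusted p = 0.0722), although it was with a pseudocount of 0.01 (adjusted p = 0.044) and without B3 (adjusted p = 0.00922).

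Upstream of omega-hydroxylation and beside it, chains are lengthened by the fatty acid elongation complex. Of the 14 genes of that pathway listed by the study, 13 were tested, and 6 were called higher in russet skin and 7 lower (median −0.68). Over all genes tested, 15.3% were called, but this list too came from these same libraries, so its counts are not independent evidence. The call of 103940571 was lost with no trend and without A2, A3, B1, B2 or B3. That of 103954810 was lost with no filter and without A1, A2, A3, B2 or B3. The call of 103927574 was lost without A1, A3, B1 or B2, and that of 103941306 without A1 (adjusted p from 0.0546 to 0.131 over all of these). The most abundant in green skin was 103949661, a 3-ketoacyl-CoA synthase 10-like gene for the condensing step, with 7.48, 2.95 and 5.10 FPKM in A1, A2 and A3, against 161, 171 and 98.3 FPKM in B1, B2 and B3 (−4.82, adjusted p = 0.000191). It was also highest in A1 among the russet libraries. The lowest log2 fold change was that of 103947140 (−6.23), at 0.0345 ± 0.0369 FPKM in russet and 9.77 ± 0.852 FPKM in green skin, and the highest that of 103933989 (5.31), at 34.3, 23.8 and 16.9 FPKM in A1, A2 and A3, against 0.528, 0.622 and 0.398 FPKM in B1, B2 and B3.

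Cutin is polymerized outside the cell by GDSL lipases, to which the cutin synthases belong. Of 28 GDSL lipase genes listed by the study, 7 were called higher in russet skin, 12 lower, and 9 were not called, beside 15.3% called over all genes tested. The study listed them for varied expression between these skins, so the counts are not independent evidence about the family. The call of 103949809 was lost with no trend and when any library was left out (adjusted p from 0.0532 to 0.0931). That of 103947426 was lost without A1, A2, B1, B2 or B3 (adjusted p from 0.0512 to 0.086), and that of 103926922 without B2 (adjusted p = 0.052). LTL1-like 103940363 had 2.42, 1.55 and 2.17 FPKM in A1, A2 and A3, against 83.4, 134 and 94.9 FPKM in B1, B2 and B3 (−5.59, adjusted p = 2.54e-05). At5g33370-like 103968112, close to an Arabidopsis cutin synthase, had 4.04 ± 0.581 FPKM in russet and 123 ± 30.4 FPKM in green skin (−4.87, adjusted p = 2.72e-05). Both were at a level near that of CYP86A22 in green skin and overlapped with its libraries there. The extremes of the list were 103944138, At5g45950, with a log2 fold change of −9.21 (0.0251 ± 0.0434 and 73.6 ± 23.5 FPKM), and 103929852, At5g22810, with 6.35 (53.3 ± 20.7 and 0.603 ± 0.361 FPKM). The most abundant in green skin was the EXL3-like gene 103929236 with 111 ± 40.0 FPKM in russet and 237 ± 46.9 FPKM in green skin (−1.15, adjusted p = 0.0413), a call that was lost when any of A2, A3, B1, B2 or B3 was left out (adjusted p from 0.0647 to 0.134), with no filter and with no trend.

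Cuticle monomers leave the cell through ABCG transporters, with ABCG11 and ABCG32 as examples in Arabidopsis. Only 2015 of the 42966 genes had a description in the tables used here. Of 5 genes described there as members 11 or 32 of this family, 2 were called higher in russet skin, 2 lower, and 1 was not called, beside 15.3% called over all genes tested. ABCG11-like 103930593 followed the direction of CYP86A22, with 0.0595 ± 0.0399 FPKM in russet and 5.40 ± 0.609 FPKM in green skin (−5.14, adjusted p = 6.52e-05). ABCG11-like 103936479, the most abundant of them, did not, with 235 ± 42.6 and 101 ± 17.8 FPKM (1.21, adjusted p = 0.0055). ABCG32-like 103960664 was at 10.4 ± 2.25 and 21.6 ± 0.852 FPKM (−1.07, adjusted p = 0.00709), and ABCG32-like 103962994 at 18.0 ± 3.52 and 0.735 ± 0.258 FPKM (4.47, adjusted p = 9.7e-05).

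Transcription factor genes linked to cutin had smaller log2 fold changes than CYP86A22. The 3 putative homologs of WIN1/SHN1, activators of cutin and wax genes in Arabidopsis, had log2 fold changes of −1.34 (103953943, adjusted p = 0.0196), −1.38 (103965575, adjusted p = 0.00194) and −1.17 (103946697, adjusted p = 0.0789). Of these, 103946697 was not called, with 13.6, 4.76 and 11.7 FPKM in A1, A2 and A3 against 19.6, 21.2 and 21.4 FPKM in B1, B2 and B3, but it was called without A2 (−0.71, adjusted p = 0.0222). The call of 103953943 was lost without B2 (adjusted p = 0.0667) or B3 (adjusted p = 0.0628). Of 12 putative homologs of MYB genes linked to suberin, 11 were tested, 10 were called higher in russet skin and 1 was not called, beside 8.05% called higher over all genes tested. The study reported both the WIN1/SHN1 and the MYB homologs as differing in these same libraries, so their counts are not independent evidence. The highest was the MYB93/MYB107 homolog 103930480, at 5.55 ± 0.655 FPKM in russet and 0.143 ± 0.0489 FPKM in green skin (4.55, adjusted p = 6.93e-05). With the replicate block, i.e., the library number added to the fit, the call of the MYB41 homolog 103944470 was lost (adjusted p = 0.0567) and the MYB1 homolog 103931258 was called (adjusted p = 0.0279), as it was without A2 (adjusted p = 0.0331). The call of 103944470 was also lost with a pseudocount of 0.01, with voom and without any 1 library other than B1 (adjusted p from 0.0517 to 0.118). That of the MYB1 homolog 103934194 was lost without any 1 library other than A2 and B3 (adjusted p from 0.0587 to 0.0627).

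The labelled skin types were set beside marker genes. The ECERIFERUM 1-like, HHT-like and fatty acyl-CoA reductase genes belong to the list drawn from these same libraries. Their values describe the labels and are no independent check of them. Of the cuticle markers, the 5 ECERIFERUM 1-like genes summed to between 0 and 0.0447 FPKM in russet libraries and between 18.9 and 29.3 FPKM in green libraries, and 4 of them had no russet read. Of the periderm markers, HHT-like transcript summed to between 81.6 and 148 FPKM in russet libraries and between 7.89 and 8.37 FPKM in green libraries. Of 2 chlorophyll a-b binding protein genes found among the genes with a description, 103926626 was at 249 ± 14.3 FPKM in russet and 162 ± 16.1 FPKM in green skin (0.62, adjusted p = 0.0228), a call that was lost when any 1 library other than B1 was left out (adjusted p from 0.0528 to 0.0773). The other, 103927393, was not called (232 ± 49.4 and 154 ± 42.2 FPKM, adjusted p = 0.181), though it was called with the replicate block (adjusted p = 0.0227). The ECERIFERUM 1-like genes thus lay in the direction of CYP86A22 and the HHT-like genes in the opposite one. Other markers were not all called in the direction of their skin type. The 3-ketoacyl-CoA synthase 10-like gene and 2 WIN1/SHN1 homologs were called lower in russet skin, and 103946697 was not called (−1.17). Among reductases, 4 were called higher and 103954216 lower (−2.34), the only call against its skin type. The MYB93/MYB107 homologs 103960041, 103930480 and 103939715 were called higher, and 103960468 was not tested. The part of these genes in the difference of CYP86A22 was not tested. In such bulk skin samples, fewer epidermal cells and less transcript per cell cannot be told apart.

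CYP86A22 lies on scaffold NW_008988294.1 of the Chinese white pear (*Pyrus* × *bretschneideri*) genome, on the minus strand from 190496 to 192897. Its span of 2402 bp exceeds the deposited gene length of 2366 bp by 36 bp. It is the 12th of 35 genes on the scaffold by start position, and no other annotated gene overlaps it. The nearest are 103963864, 8.87 kb away on its upstream side and on the same strand, and 103963863, 34.2 kb away on the other side. Neither was called, with 5.79 ± 2.22 FPKM in russet and 7.33 ± 0.965 FPKM in green skin for 103963864 (−0.40, adjusted p = 0.44) and 12.4 ± 0.711 and 11.9 ± 1.24 FPKM for 103963863 (0.06, adjusted p = 0.805).

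The difference in CYP86A22 was not shared by its neighbours. Of the 10 nearest genes, 5 on each side, 8 were tested and their log2 fold changes lay between −0.40 and 0.93. Only 103963862, 46.6 kb away, was called among them, and it was higher in russet skin, with 42.3, 26.5 and 31.6 FPKM in A1, A2 and A3 against 19.9, 16.5 and 15.6 FPKM in B1, B2 and B3 (0.93, adjusted p = 0.0181). This call was lost without B2 (adjusted p = 0.0686) or B3 (adjusted p = 0.0603). The most abundant neighbour, 103963868, had 78.1 ± 6.59 FPKM in russet and 73.9 ± 4.19 FPKM in green skin (0.08, adjusted p = 0.722).

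**Figure D4:**
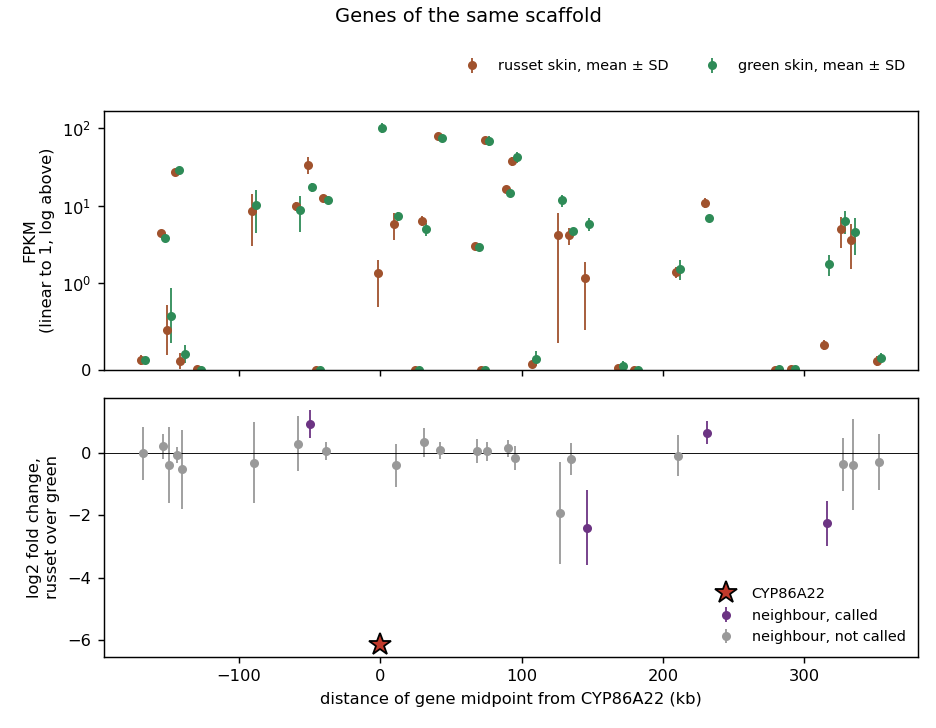
FPKM (upper panel, mean ± SD of 3 libraries) and log2 fold change, russet over green (lower panel, 95% confidence interval for the neighbours), of the genes on the scaffold of CYP86A22 by their distance from it in kb. Russet and green points lie close to each other for most neighbours, and the star of CYP86A22 at −6.15 is far below all others, the lowest of which is at −2.39.

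Along the whole scaffold, 4 of the 34 other genes had no read in any library and 25 were tested. Of these, 2 were called higher in russet skin, 2 lower, and 21 were not called, so 16.0% were called, near the 15.3% of all genes. Their median log2 fold change was −0.10, and 22 of the 25 were within a 2-fold change. The calls besides 103963862 were 103963880 (0.65, adjusted p = 0.0342), 103963877 (−2.39, adjusted p = 0.0196) and 103963881 (−2.25, adjusted p = 0.00298), and only 1 call was left without B2 and 1 without B3. The call of 103963880 was also lost without A1, A3 or B1, with no trend and with voom (adjusted p from 0.0529 to 0.106 over these and B2 and B3), and that of 103963877 without B2 (adjusted p = 0.0731) or B3 (adjusted p = 0.0662). Genes 103963877 and 103963881 belong to 6 pairs of genes with lengths within 5% of each other that stand in mirrored order on opposite strands, starting 106 kb from CYP86A22. The sequences of these pairs were not compared. If they are near-identical, reads may be split between them, and these calls are then uncertain and may not be separate. CYP86A22 is outside that stretch. Its share of all reads on the scaffold was 0.794%, 0.367% and 0.353% in A1, A2 and A3, against 26.4%, 30.3% and 23.4% in B1, B2 and B3, and among the 35 genes it was the most abundant in green skin and at place 20 in russet skin.

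Genes with the most similar pattern over the 6 libraries were searched among the 23837 genes whose mean was 1 FPKM or more, by the root mean square difference of log2(FPKM + 0.1) after centering each gene on its own mean. The closest was 103968008 with a difference of 0.261, followed by 103930074 (0.305), 103956818 (0.311), 103943280 (0.326) and 103943355 (0.344), whereas the median over all genes was 3.11. None of these is named in the tables used here. Gene 103930074 was more abundant than CYP86A22, with 7.89, 5.82 and 3.18 FPKM in A1, A2 and A3, against 316, 410 and 233 FPKM in B1, B2 and B3. Genes 103943280 and 103943355 lie on the same scaffold, NW_008988059.1. The measure is set mainly by the difference between the skins, so it is a description of these 6 libraries only.

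**Figure D5:**
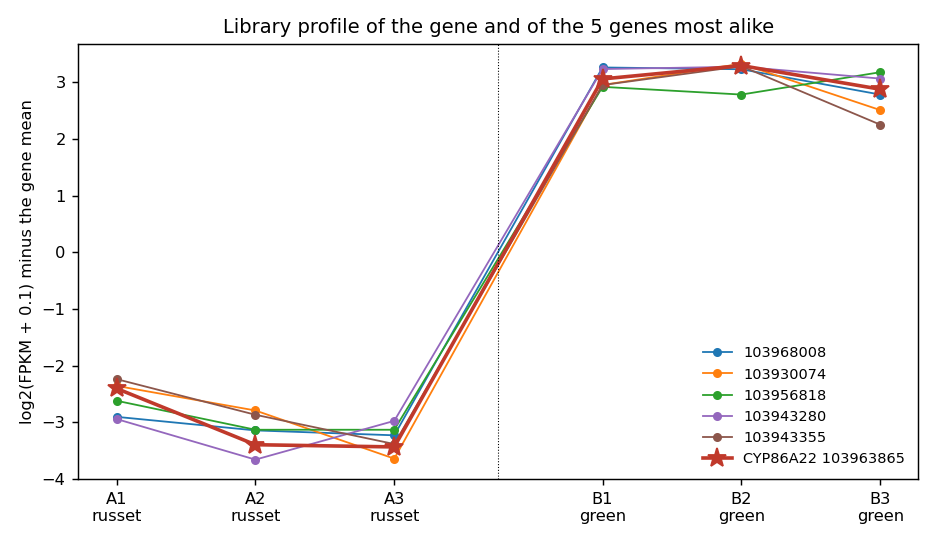
Level of CYP86A22 (star) and of the 5 genes with the most similar pattern in each library, as log2(FPKM + 0.1) minus the mean of the gene, russet libraries on the left and green libraries on the right. All 6 lines are low in A1 to A3 and high in B1 to B3, and CYP86A22 stands higher in A1 than in A2 and A3.

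Among the listed genes, the ECERIFERUM 1-like gene 103932052 was the 11th closest to CYP86A22 by this measure, the LTL1-like gene 103940363 the 15th, the APG-like GDSL lipase gene 103934976 the 27th, 103929753 the 34th and the 3-ketoacyl-CoA synthase 10-like gene 103949661 the 87th. Without centering, so that the level counts too, the closest gene was the APG-like 103934976 (0.510), with 1.78, 0.706 and 1.82 FPKM in A1, A2 and A3, against 68.0, 85.7 and 63.9 FPKM in B1, B2 and B3. The LTL1-like 103940363 was next (0.523), and 3 genes without a name, 103944750, 103951985 and 103932242, followed. None of these 5 is among the 5 found with centering.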

How the data were processed

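Per the study's methods, the authors filtered the reads, aligned them to the Chinese white pear genome and assembled transcripts. The submitters' processing notes name HISAT2 2.0.4, Cufflinks 2.1.1 and DESeq 1.18.0. The deposited values are FPKM per gene and library. The genome version and the counting program are not given in the sources used here. Columns A1 to A3 were taken as russet and B1 to B3 as green from the study's description of its libraries, and which green sample is which column is not shown. Whole reads were recovered from FPKM and gene length (tolerance 0.0001): 74.5% of 191857 values were whole with the deposited length, 8439 genes needed another length, and the libraries then held 31381552 to 42729578 reads, so that 1 read on 1000 bp is 0.0234 to 0.0319 FPKM.

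Russet was compared with green by a two-sided moderated linear model with a mean-variance trend (limma 3.58.1, R 4.3.3) on log2(FPKM + 0.1) for genes averaging 0.1 FPKM or more in the 6 libraries, with Benjamini-Hochberg adjustment over all genes and a threshold of 0.05. The fit was tested on simulated data. Other steps used Python 3.11.15. Intervals and the floor of 3 reads cover counting error only. Alternatives were other pseudocounts, filters and scaling, no trend, voom on recovered reads, each library left out, and a replicate block by column number. Deviations of same-number columns correlated at 0.195, 0.211 and 0.323. The block was not part of the reported fit, because the methods name no pairing and the labels number the lines differently.

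The gene, the lists and the rule for named genes (the gene, its 5 nearest genes on each side, the pathway list, the extremes and the most abundant member of each other list, its neighbours in rank and the 5 genes most alike) were chosen with earlier results of these data known. Some further genes were chosen after their values were seen. Descriptions come from the study's tables, 1 of which is held only in part, and covered 2015 of 42966 genes, so most members of a family could not be found. Among those, lists of other CYP86 genes, other hydroxylases, cytochrome P450 reductases, HOTHEAD, long chain acyl-CoA synthetases, DCR, BODYGUARD and acyl-ACP thioesterases matched no gene besides CYP86A22, and the glycerol-3-phosphate acyltransferase list matched only a gene of another acyltransferase, which was left out. Of the lists of wax ester synthases and lipid transfer proteins, 103927676 was called (−2.22) and 103928032 was not (0.22). No sequence is shown, as none was used here.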

Additional observations from a re-analysis of the deposited data

How the results depend on the processing

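The direction of CYP86A22 was the same under every alternative. Its log2 fold change was −5.42 with a pseudocount of 1, −6.25 with 0.01 and −6.29 with voom on recovered reads, and between −6.49 and −5.97 with 1 library left out. Its place by change was 14 with a pseudocount of 1 and 187 with 0.01, since the constant limits the fold change of genes with few reads. It was 169 with voom, for which the cause was not tested, and 40 to 61 with 1 library left out. The count of genes called was 4625 in the reported fit and 3172 to 3624 with 1 library left out, which also leaves fewer samples. Of the other 20 pathway genes, 19 were called in the reported fit and 18 to 20 with 1 library left out. Of the scaffold neighbours, 4 were called in the reported fit and 1 to 5 with 1 library left out. With the replicate block, 6038 genes, 19 pathway genes and 4 neighbours were called, and 5 of 125 named genes and list members changed their call, 103944470, 103931258 and 103927393 as given and the GDSL lipase genes 103956398 (adjusted p = 0.0148) and 103949240 (adjusted p = 0.0434), both called only with the block. Under the alternatives that keep all libraries, 12 of the 125 changed their call, and 21 did so when 1 library was left out. Of the 5 genes most alike in pattern, 0 were shared with the 5 found without centering. CYP86 family genes gave no value, since no other member was found by description. Russet values rested on 97 to 169 reads, but the spread between russet libraries (coefficient of variation 47.0%) was wider than their counting intervals. Reads of unlisted near-identical CYP86A copies could not be told apart.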
